A study of Mus musculus with 7 samples.

Results

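The genes described here load amino acids onto transfer RNA or belong to the amino acid programme of the transcription factor ATF4. They were chosen by gene symbol, with earlier results of these data known: 38 of the 54532 genes in the expression table, made up of 20 subunits of cytosolic aminoacyl-tRNA synthetases and 18 genes of serine, proline and one-carbon synthesis, amino acid transport and the ATF4 pathway. Polyadenylated RNA of mouse eye samples was sequenced in 7 libraries: 2 wildtype, 2 heterozygous and 3 knockout for Agbl5, the gene of the tubulin deglutamylase CCP5. The series asked what loss of Agbl5 does in photoreceptors. The tissue label read eyeball, whereas the extraction protocol began from retina, and age, strain, the make of the knockout allele and which libraries came from which animals were not given in the labels. The p-values below therefore measure only the spread between these libraries, which may be technical in part.

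Aminoacyl-tRNA synthetases each join one amino acid to its own transfer RNAs, the substrate that ribosomes use. When uncharged transfer RNA or a misfolded protein load activates a kinase of the initiation factor eIF2 alpha, general translation slows and ATF4 is made from its existing messenger RNA. ATF4 then pairs with C/EBP proteins at composite DNA elements and drives genes for synthetases, amino acid synthesis and amino acid import, so its activity can move with little movement of its own transcript. Retinal photoreceptors renew their outer segments all the time and so make much protein.

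Agbl5 itself was read first, as the check of the genotype labels. It stood at 9.89 and 8.56 FPKM (fragments scaled to gene length and library size) in the wildtype libraries, at 4.21 and 5.34 in the heterozygous ones and at 1.53, 1.73 and 1.26 in the knockout ones. The 3 genotypes did not overlap, and Agbl5 fell by 2.03 on the log2(FPKM + 1) scale in knockout against wildtype (SE 0.13, limma, adjusted p = 0.00406). Whole reads recovered from the FPKM summed to between 12244707 and 14339701 per library. The library sizes that the FPKM imply were largest in wildtype, at 14625871 and 15080548 against 13052142 to 14124669 elsewhere. These are scaling denominators worked back from the FPKM and not counted reads. The FPKM sums were smallest in wildtype, at 251532 and 239627 against 254793 to 298148. Heterozygous 1 and knockout 1 held lens RNA: the 10 lens markers summed to 4156 and 6521 FPKM there and to between 23.95 and 56.97 in the other 5 libraries. Xist RNA was present in wildtype 2 and knockout 3 (181 and 158 FPKM) and at most 0.0381 elsewhere, with Ddx3y at 0 in these 2 and at 15.3 to 17.7 FPKM in the other 5. Wildtype and knockout thus held both sexes, in shares that differed between them, and heterozygous males alone, so sex was not balanced in any comparison. The wildtype libraries therefore came from different animals, as did knockout 3 and the other knockout libraries. For the heterozygous libraries this was not known. In the knockout libraries 5 reactive glia markers summed to 106.5 to 128.0 FPKM against 18.32 to 27.59 in controls, 8 microglia markers to 31.63 to 36.34 against 15.89 to 17.47, and 8 rod markers to 7886 to 8014 against 8629 to 9787. Against all controls 6 of the 8 rod markers were lower and 2 were higher. In 1 of them every knockout library lay above all controls. In such mixed tissue fewer cells of a type and less RNA per cell cannot be told apart.

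Part of this gene set carries the letters of the ATF4 element near its start sites. A promoter window from 250 bases before to 50 after the start was available in RefSeq (build GRCm38.p6) for 30 of the 38 genes, 13 synthetases and 17 others. No window was used here for Cars, Hars, Lars, Nars, Rars, Vars, Wars and Slc7a5. The C/EBP-ATF composite letters TGATGNAA, searched on both strands, occurred in 5 of the 13 synthetase genes (Aars, Gars, Iars, Tars and Yars) and in 5 of the 17 others (Asns, Chac1, Pycr1, Slc7a11 and Trib3). Those are 38.5% and 29.4%, against 4.51% of the 27025 genes with such a window (3.97% of 32851 promoters). A match describes these letters and is not a measured binding site. The windows of 5 members are shown because their transcripts are compared below, 2 synthetases and 3 classical ATF4 target genes, each read 5′ to 3′ on the gene's strand with the matched letters, or their reverse complement, in capitals. In order they lie at chr13:49682126-49682155 (plus strand), chr4:129189895-129189924 (plus), chr6:7693214-7693243 (minus), chr2:152344028-152344057 (minus) and chr2:119351038-119351067 (plus).
Iars: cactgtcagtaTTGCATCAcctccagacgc
Yars: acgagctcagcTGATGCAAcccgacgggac
Asns: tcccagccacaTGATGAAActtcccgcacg
Trib3: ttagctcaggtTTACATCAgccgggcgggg
Chac1: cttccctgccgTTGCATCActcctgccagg
The match was on the gene's own strand in Yars and Asns and on the opposite strand in Iars, Trib3 and Chac1.

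The synthetases were well expressed. Mean levels over the 7 libraries ran from 8.29 FPKM for Eprs, the bifunctional glutamyl-prolyl enzyme, to 61.1 FPKM for Nars, the asparaginyl enzyme, and all 20 passed the filter of a mean of at least 1 FPKM. Of the 18 other genes 17 passed it. The one below was Pycr1, a proline synthesis enzyme, which stood at 0.799 and 1.15 FPKM in wildtype, 0.918 and 0.935 in heterozygous and 0.576, 0.396 and 0.650 in knockout libraries and was not tested.

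Cars, the cysteinyl-tRNA synthetase gene (chromosome 7, 143557230 to 143600090, minus strand, GRCm38), was the only member that passed the test in any comparison. Its levels were 14.7 and 15.4 FPKM in wildtype, 10.6 and 10.5 in heterozygous and 8.82, 9.03 and 9.93 in knockout libraries, from 768 to 1529 reads. No library of one genotype overlapped another. Cars fell by 0.65 on the log2(FPKM + 1) scale in knockout against wildtype (SE 0.07, limma, adjusted p = 0.0229), from 15.1 ± 0.469 (SD, n = 2) to 9.26 ± 0.590 FPKM (SD, n = 3). Heterozygous libraries, at 10.5 ± 0.10 FPKM, differed from wildtype by -0.48 ± 0.08 (SE) without passing the test (limma, adjusted p = 0.974). Knockout in turn differed from heterozygous libraries by -0.17 ± 0.07 (limma, adjusted p = 0.416). The knockout call held in 10 of 18 alternative analyses and was lost without either wildtype library (adjusted p = 0.224 without wildtype 1 and 0.307 without wildtype 2), without knockout 1 (0.112) or knockout 2 (0.125), when the 2 lens-rich libraries were dropped (0.174), on the TPM scale (0.0575) or with the lens level as a covariate (0.0719). The call was also lost with a replicate block (limma, adjusted p = 0.163). Among the alternatives that kept it, median-of-ratios rescaling multiplied every library by the same factor, so it could hardly change the result. Leaving out heterozygous 1 or 2 kept the same wildtype and knockout libraries and so the same Cars difference. Exons of a predicted gene on the other strand overlap 211 of the 6583 exonic bases of Cars, and the kit did not mark strand.

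**Figure D1:**
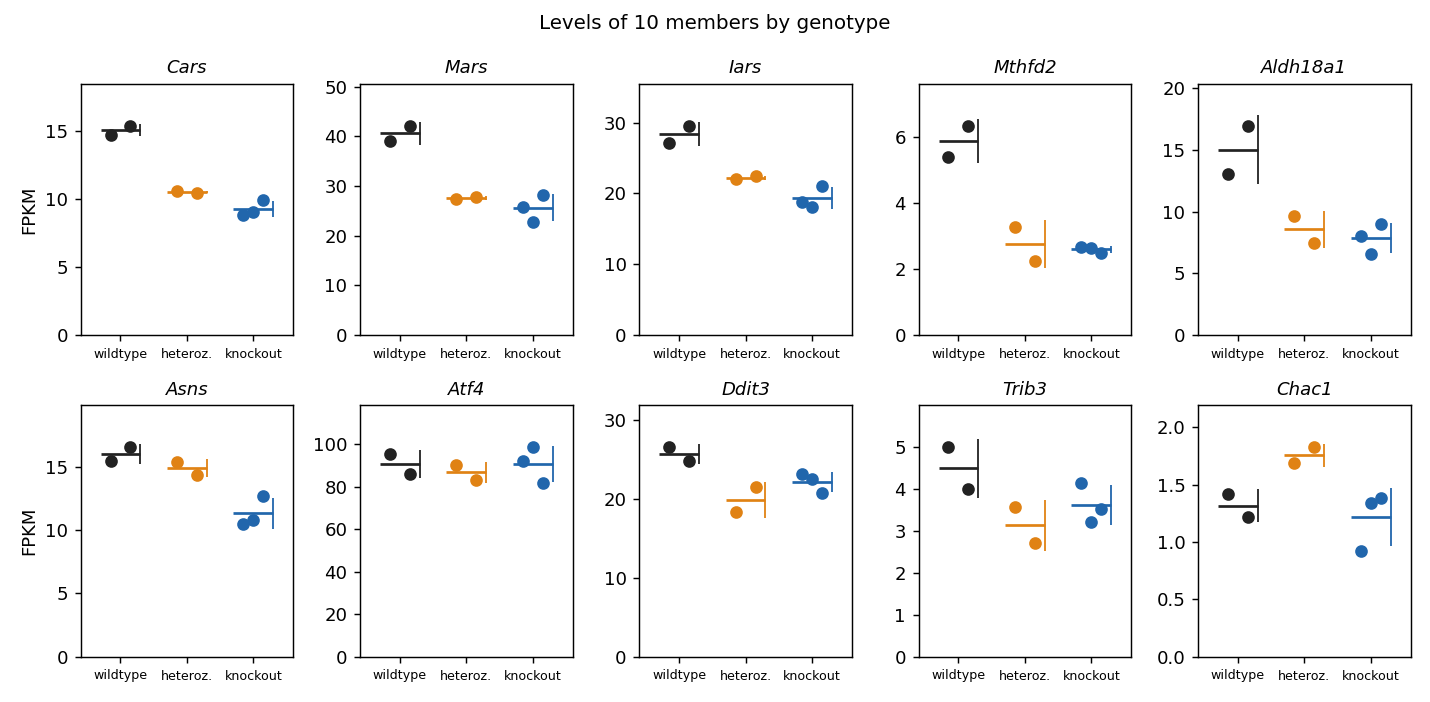
FPKM (y axis, from 0) of 10 members in each of the 7 libraries (points) by genotype, with the mean (horizontal line) and SD (vertical bar). Cars, Mars, Iars, Mthfd2, Aldh18a1 and Ddit3 are highest in both wildtype libraries, Asns is lowest in the 3 knockout libraries, and Atf4 overlaps between genotypes.

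In knockout against wildtype 1 of the 20 synthetases was called, beside 0.323% of all 15472 genes tested (50 genes in either direction, 0.0582% lower). Before adjustment 10 of the 20 had a p under 0.05, all toward lower values in knockout, beside 3.24% of all genes toward lower and 4.26% toward higher values. Log2 changes were below 0 for 15 of 20 (51.0% of all genes), with a median of -0.16 against -0.00 over all genes tested. In 11 of the 20 every knockout library lay below both wildtype libraries, as in 14.7% of all genes, and in none did they all lie above (13.5% of all genes). When whole reads were analysed with voom, 4 of the 17 synthetases with recovered reads were called (Cars, Mars, Iars and Yars), beside 0.520% of genes.

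Mars and Iars encode the methionyl and isoleucyl enzymes of the multisynthetase complex. Mars stood at 39.0 and 42.2 FPKM in wildtype, 27.4 and 27.8 in heterozygous and 25.9, 22.8 and 28.2 in knockout libraries. Iars stood at 27.1 and 29.6, at 22.0 and 22.4, and at 18.8, 18.1 and 21.1 FPKM in the same order. In both genes the wildtype libraries were the highest, and for Iars the 3 genotypes did not overlap. Neither passed the main test in knockout against wildtype: Mars differed by -0.65 ± 0.09 (log2, SE; limma, adjusted p = 0.0803) and Iars by -0.53 ± 0.08 (limma, adjusted p = 0.0879). With voom the adjusted p was 0.00917 for Mars and 0.0150 for Iars. The last 68 exonic bases of Mars overlap those of Ddit3, which runs toward it on the opposite strand.

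Nars and Sars, the asparaginyl and seryl enzymes, showed smaller differences. Nars stood at 67.5 and 70.5 FPKM in wildtype, 58.1 and 62.7 in heterozygous and 56.2, 55.8 and 56.7 in knockout libraries. Sars stood at 36.5 and 38.1, at 31.5 and 34.2, and at 32.0, 31.3 and 31.4 FPKM. The wildtype libraries were again the highest in each gene. Knockout differed from wildtype by -0.29 ± 0.06 in Nars and -0.23 ± 0.06 in Sars (log2, SE; limma, adjusted p = 0.228 and 0.371). Farsb, the beta subunit of the phenylalanyl enzyme, had another order. It stood at 22.2 and 22.4 FPKM in wildtype, 21.1 and 23.0 in heterozygous and 19.8, 19.7 and 20.2 in knockout libraries, so the knockout libraries were the lowest and the controls overlapped. Against all controls the Farsb difference was -0.15 ± 0.05 (log2, SE; limma, adjusted p = 0.289). Its partner Farsa, the alpha subunit, ran from 13.1 to 18.4 FPKM with overlapping genotypes and a difference of 0.07 ± 0.11 in the same comparison (limma, adjusted p = 0.827).

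The remaining 14 synthetases did not pass the test in any comparison. Aars, Tars and Yars, the alanyl, threonyl and tyrosyl enzymes, also had both wildtype libraries above the 5 others. Dars, Eprs, Gars, Hars, Kars, Lars, Qars, Rars, Vars and Wars did not, and in these 10 the highest library was between 1.15 and 1.55 times the lowest. Their difference of knockout from wildtype ran from -0.39 ± 0.13 for Gars, the glycyl enzyme, to 0.09 ± 0.08 for Kars, the lysyl enzyme (log2, SE). In all, 8 of 20 synthetases were highest in both wildtype libraries and 0 were lowest there, beside 4.13% and 3.57% of all tested genes.

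**Figure D2:**
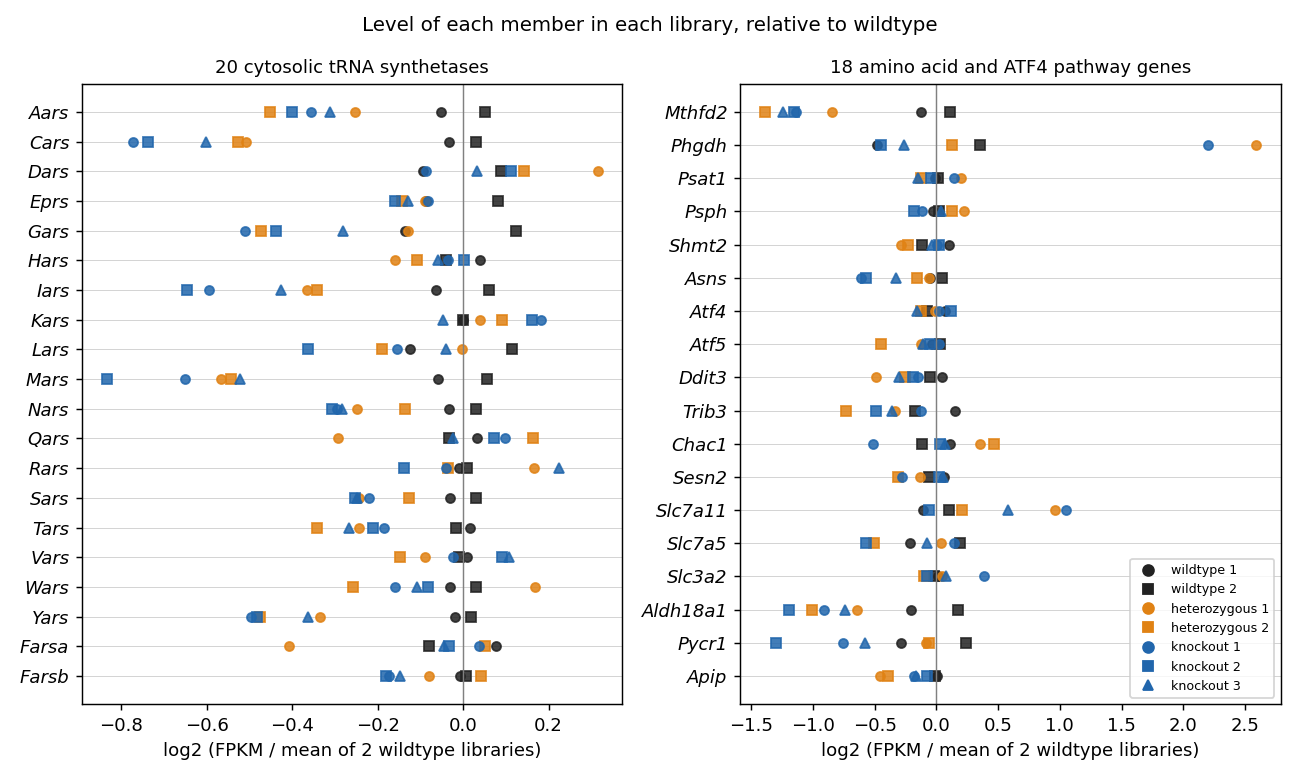
Level of each member in each library as log2 of FPKM over the mean of the 2 wildtype libraries (x axis), with the 20 synthetases on the left and the 18 other members on the right; colours are genotypes and symbols are replicates. Cars, Mars, Iars, Yars and Aars have all 5 heterozygous and knockout libraries to the left of wildtype, while Dars, Kars and Rars spread to both sides of 0; Phgdh in heterozygous 1 and knockout 1 lies farthest to the right.

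Summed over the 20 synthetases the level was 446.8 and 469.4 FPKM in wildtype, 399.2 and 394.0 in heterozygous and 379.2, 374.1 and 392.5 in knockout libraries. The 3 genotypes did not overlap in this sum, although heterozygous 2 and knockout 3 were close, at 394.0 and 392.5. In the mean log2(FPKM + 1) of the same 20 genes, heterozygous 2 at 4.19 lay below knockout 3 at 4.20. Heterozygous and knockout thus overlapped on that measure, with wildtype highest at 4.34 and 4.40. The TPM scale sets every library to the same total. On it the median of all tested genes moved by -0.16 in knockout against wildtype. The synthetase median stood at -0.33. All 20 synthetases were below 0 there, but so were most tested genes, given that median. Of the 17 mitochondrial synthetases 13 were below 0 on this scale, against 5 on the FPKM scale. The larger implied library sizes and smaller FPKM sums of the wildtype libraries moved with the synthetase pattern. Their part in it was not tested beyond the TPM rescaling. A single predicted gene, Gm23935, counts toward these sums and so toward the TPM total. Its level was lowest in both wildtype libraries, 13715 and 5184 FPKM, and ranged between 15156 and 51208 elsewhere. How much of the TPM shifts came from this gene was not tested. Some markers of other cells moved with the synthetase pattern. The 4 blood markers were all lower in both other genotypes than in wildtype, with medians of -0.52 in knockout and -0.47 in heterozygous libraries, and summed to 67.37 and 46.61 FPKM in wildtype against 30.36 to 48.17 elsewhere. The 5 reactive glia markers summed to 18.32 and 20.02 FPKM in wildtype and 20.16 to 128.0 elsewhere, without overlap. Of the pigment epithelium and melanocyte markers 9 of 9 tested were higher in both comparisons (medians 0.58 and 0.61), although their sums overlapped, at 45.89 and 157.1 FPKM in wildtype against 82.82 to 273.5. The 6 cone markers were all lower in knockout (median -0.19) and 4 of 6 were lower in heterozygous libraries, with sums of 531.6 and 507.5 FPKM against 428.2 to 536.5. The 10 Mueller glia markers overlapped, at 1578 and 1479 FPKM in wildtype and 1423 to 1583 elsewhere. No marker of these 5 lists was listed at 0, and their part in the result was not tested.

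The split of the synthetases by assembly was drawn after the values were seen and is given as a description. In knockout against wildtype the 8 enzymes of the multisynthetase complex had a median log2 difference of -0.05, with 4 of 8 below 0. The 12 free enzymes had a median of -0.22, with 11 of 12 below 0. Mars and Iars were the 2 complex members that stood highest in wildtype. The 3 scaffold proteins of that complex were close to even, with a median of -0.02 and 0 called by limma or voom, and 0 with an unadjusted p under 0.05. Eef1e1 and Aimp1, the scaffold genes with the smallest p against all controls, differed by -0.08 ± 0.06 and -0.04 ± 0.07 (log2, SE).

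The mitochondrial synthetases, encoded by a separate set of nuclear genes, gave a comparison within the same libraries. Of 17 tested, 0 were called by limma or voom in any of the 4 comparisons and 0 stood highest in both wildtype libraries. Their median difference of knockout from wildtype was 0.05 (-0.10 on the TPM scale, where all tested genes had a median of -0.16). At an unadjusted p under 0.05 there were 2 of 17, both higher in knockout, beside 4.26% of all genes. Lars2, which ranged from 13.2 to 96.9 FPKM, had the highest difference, at 1.65, and is described at the end. Cars2, the mitochondrial counterpart of Cars, stood at 2.44 and 2.45 FPKM in wildtype, 2.31 and 2.27 in heterozygous and 2.84, 3.27 and 3.16 in knockout libraries. The knockout libraries were above all controls, on the opposite side from Cars, and the difference from all controls was 0.28 ± 0.07 without passing the test (limma, adjusted p = 0.216). Sars2, the mitochondrial seryl enzyme, differed by 0.19 ± 0.09 (limma, adjusted p = 0.438).

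**Figure D3:**
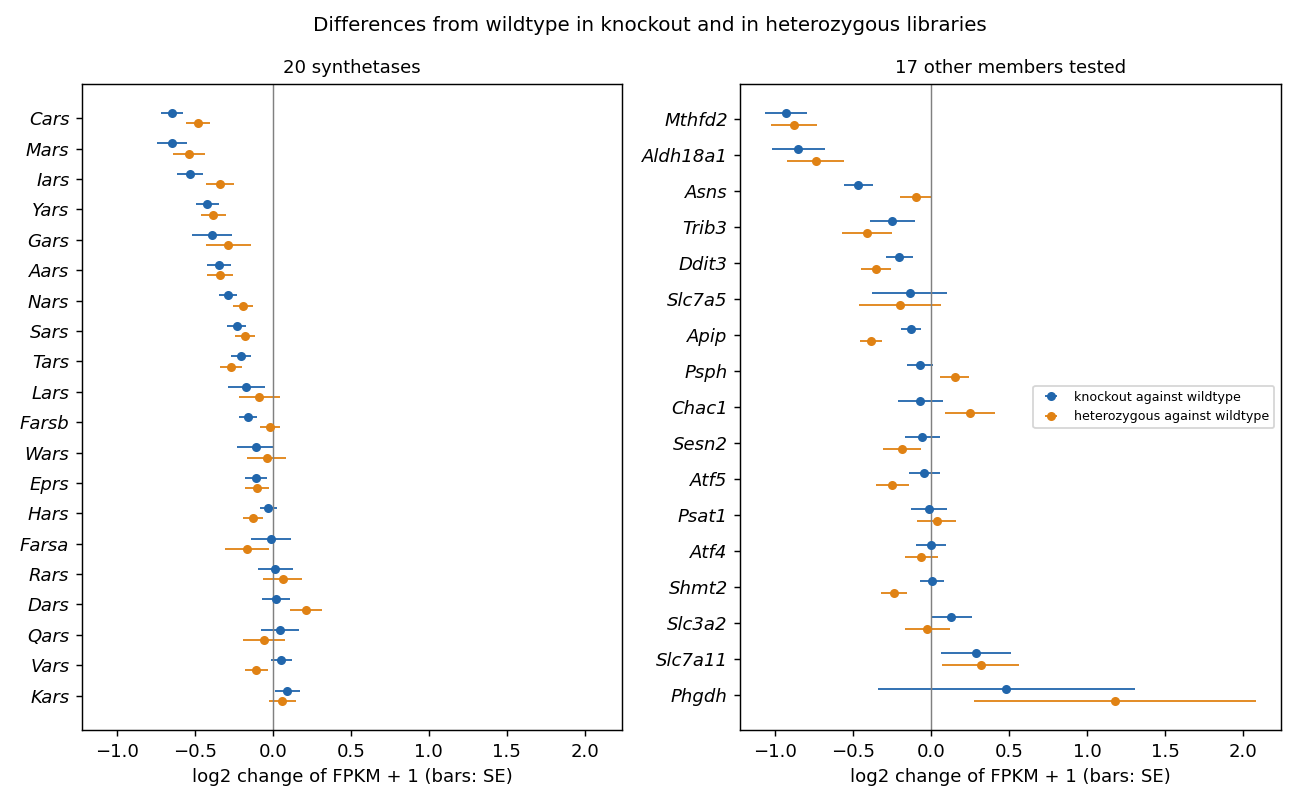
Log2 change of FPKM + 1 with SE (bars) for the 20 synthetases and the 17 other members tested, in knockout against wildtype (blue) and heterozygous against wildtype (orange), ordered by the knockout value. Cars, Mars and Iars lead on the left and Mthfd2, Aldh18a1 and Asns on the right; the 2 comparisons share the wildtype libraries.

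Among the 17 other members tested none was called in knockout against wildtype by limma, beside 0.323% of all genes. With voom 2 were, Mthfd2 and Aldh18a1, beside 0.520% of genes. At an unadjusted p under 0.05 there were 3 of 17, all lower in knockout, and in 5 of 17 every knockout library lay below both wildtype libraries, beside 3.24% and 14.7% of all genes. The median log2 difference was -0.07, with 13 of 17 below 0, beside 51.0% of all genes.

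Mthfd2 encodes the mitochondrial enzyme that passes one-carbon units from serine to formate and is a known ATF4 target. It stood at 5.39 and 6.33 FPKM in wildtype, 3.27 and 2.24 in heterozygous and 2.67, 2.64 and 2.47 in knockout libraries, from 102 to 333 reads. Wildtype lay above the 5 others, whose genotypes overlapped. The difference of knockout from wildtype was -0.93 ± 0.14 on the log2 scale, the lowest of any member tested (limma, adjusted p = 0.0803), and with voom it was -1.17 (adjusted p = 0.00927). It passed the test when either heterozygous library was left out (limma, adjusted p = 0.0442 without heterozygous 1 and 0.0403 without heterozygous 2). The heterozygous difference from wildtype was -0.88 ± 0.15 (limma, adjusted p = 0.974).

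Aldh18a1 makes the first committed intermediate of proline and ornithine synthesis. It stood at 13.0 and 17 FPKM in wildtype, 9.65 and 7.49 in heterozygous and 8.0, 6.56 and 9.02 in knockout libraries. Again wildtype was highest and the other genotypes overlapped. Knockout differed from wildtype by -0.85 ± 0.17 (log2, SE; limma, adjusted p = 0.218), and by -0.94 with voom (adjusted p = 0.0339). Heterozygous libraries differed from wildtype by -0.74 ± 0.19 (limma, adjusted p = 0.974).

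Asns, asparagine synthetase, differed from these: its heterozygous libraries stood with wildtype. It was at 15.4 and 16.5 FPKM in wildtype, 15.4 and 14.4 in heterozygous and 10.4, 10.8 and 12.7 in knockout libraries, from 378 to 682 reads. All 3 knockout libraries were below all 4 controls. Knockout was at 11.3 ± 1.23 FPKM (SD, n = 3) and all controls at 15.4 ± 0.884 (SD, n = 4), a log2 difference of -0.42 ± 0.08 (SE) that did not pass the main test (limma, adjusted p = 0.0890). It passed with voom (-0.45, adjusted p = 0.0392) and with the level of the Y-linked gene Ddx3y as a covariate (limma, -0.44, adjusted p = 0.0367). Reactive glia, microglia and rod markers also separated knockout from control libraries, by the sums given above. Of the 8 rod markers 2 were higher in knockout. The part of these markers in the Asns values was not tested.

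Serine is made in 3 steps by the products of Phgdh, Psat1 and Psph. Phgdh stood at 1.87 and 3.33 FPKM in wildtype, 15.6 and 2.84 in heterozygous and 12, 1.91 and 2.18 in knockout libraries. The 2 high libraries were the 2 with lens RNA and came from different genotypes. Psat1 stood at 9.26 and 9.43, at 10.8 and 8.56, and at 10.3, 9.08 and 8.44 FPKM, with the same 2 libraries highest. Psph stood at 4.93 and 5.10, at 5.87 and 5.49, and at 4.63, 4.44 and 5.15 FPKM, without that split. By genotype all 3 were far from the test: the difference of knockout from all controls was -0.11 ± 0.72 for Phgdh, -0.03 ± 0.09 for Psat1 and -0.14 ± 0.08 for Psph (log2, SE; limma, adjusted p = 0.964, 0.919 and 0.489).

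Both lens-rich libraries were above every other library for 3 of the 38 members, a share near the 6.87% of all tested genes. Phgdh was 5.69 times as high on average there, Slc7a11, the cystine-glutamate exchanger subunit, 1.79 times and Psat1 1.18 times. Slc7a11 stood at 0.825 and 0.957 FPKM in wildtype, 1.74 and 1.03 in heterozygous and 1.85, 0.855 and 1.33 in knockout libraries. The part of lens RNA in these levels was not tested beyond this split of the libraries.

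**Figure D4:**
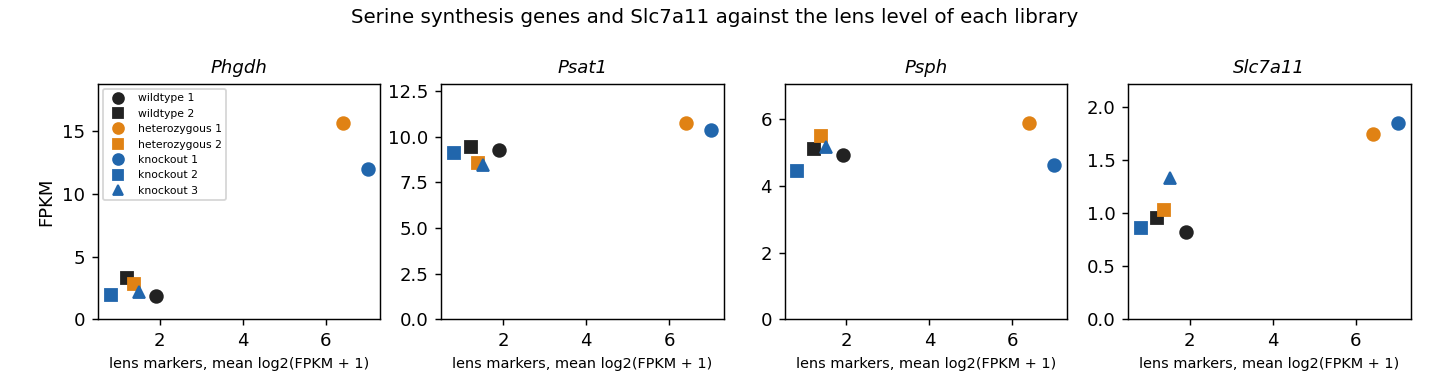
FPKM of Phgdh, Psat1, Psph and Slc7a11 (y axes, from 0) against the mean log2(FPKM + 1) of the 10 lens markers (x axes), 1 point per library. Heterozygous 1 and knockout 1, at lens values of 6.41 and 7.01, are the 2 highest libraries for Phgdh, Psat1 and Slc7a11 and not for Psph.

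Shmt2, the mitochondrial enzyme that splits serine to glycine, stood at 17.8 and 15.3 FPKM in wildtype, 13.6 and 14.1 in heterozygous and 16.7, 16.8 and 16.1 in knockout libraries. Both heterozygous libraries were the lowest, and knockout overlapped wildtype. The difference of knockout from heterozygous was 0.24 ± 0.08 (log2, SE; limma, adjusted p = 0.332). The other one-carbon and glycine genes, 13 tested of 14 listed, gave 0 calls by limma or voom in every comparison. At an unadjusted p under 0.05, 1 was higher in knockout than in wildtype, beside 4.26% of all genes. Against all controls 3 were higher and 0 lower, beside 6.76% and 5.46% of all genes. Gldc, a subunit of the glycine cleavage system, stood at 10.4 and 8.90, at 10.6 and 10.9, and at 13.1, 11.5 and 13.6 FPKM, highest in the knockout libraries (0.29 ± 0.08 against all controls; limma, adjusted p = 0.25). Aldh1l1, a folate enzyme found in glia, differed by 0.50 ± 0.16 in the same comparison (limma, adjusted p = 0.308).

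The transcription factors Atf4 and Atf5 overlapped between knockout and wildtype. Atf4 was the most abundant member and stood at 95.4 and 85.9 FPKM in wildtype, 90.2 and 83.2 in heterozygous and 92.0, 98.5 and 81.5 in knockout libraries. The genotypes overlapped, and knockout differed from wildtype by -0.00 ± 0.10 (log2, SE; limma, adjusted p = 0.997). Atf5, a related factor also induced by translational control, stood at 8.10 and 8.45, at 7.60 and 6.07, and at 8.38, 7.97 and 7.67 FPKM. Both heterozygous libraries were below the 5 others. Knockout differed from wildtype by -0.04 ± 0.10 (limma, adjusted p = 0.943) and from heterozygous libraries by 0.21 ± 0.10 (limma, adjusted p = 0.449).

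Ddit3, which encodes the stress factor CHOP, stood at 26.5 and 24.8 FPKM in wildtype, 18.3 and 21.5 in heterozygous and 23.2, 22.6 and 20.8 in knockout libraries. Wildtype was highest, and the heterozygous and knockout libraries overlapped. Knockout differed from wildtype by -0.20 ± 0.09 (limma, adjusted p = 0.688). A second gene model of Ddit3, whose exons lie within the first, was listed at 0 in every library. Trib3, a pseudokinase that CHOP and ATF4 induce, stood at 4.99 and 3.99, at 3.57 and 2.70, and at 4.13, 3.2 and 3.51 FPKM, with knockout overlapping both other genotypes (-0.25 ± 0.14 against wildtype; limma, adjusted p = 0.770).

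Chac1, a glutathione-degrading enzyme and a sensitive ATF4 target, was low, with 20 to 39 reads a library. It stood at 1.42 and 1.21 FPKM in wildtype, 1.69 and 1.83 in heterozygous and 0.924, 1.34 and 1.39 in knockout libraries. The heterozygous libraries were the highest, and knockout overlapped wildtype (-0.07 ± 0.15, log2, SE; limma, adjusted p = 0.938). At this depth a small difference in Chac1 was not detectable. Sesn2, a leucine-binding inhibitor of mTORC1, ran from 5.51 to 7.10 FPKM with overlapping knockout and wildtype libraries.

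The transporter members gave no calls. Slc3a2, the heavy chain shared by several exchangers, stood at 32.0 and 31.2 FPKM in wildtype, 32.6 and 29.5 in heterozygous and 41.4, 30 and 33.4 in knockout libraries. Knockout 1 was the highest and the genotypes overlapped (0.14 ± 0.10 against all controls; limma, adjusted p = 0.607). Its partner Slc7a5, a carrier of large neutral amino acids, ran from 9.61 to 16.2 FPKM with overlap between all genotypes. Among the other amino acid transporters, 14 tested of 15 listed, 0 were called by limma or voom in any comparison. At an unadjusted p under 0.05, 2 of the 14 were lower in knockout than in wildtype, beside 3.24% of all genes. Slc7a1, the arginine and lysine carrier, stood at 3.33 and 4.13 FPKM in wildtype, 3.30 and 2.19 in heterozygous and 2.10, 1.60 and 2.10 in knockout libraries, lowest in knockout (-0.51 ± 0.16 against all controls; limma, adjusted p = 0.292). Slc1a4, a carrier of alanine, serine and cysteine, stood at 7.44 and 8.88, at 6.28 and 4.45, and at 4.97, 4.30 and 5.16 FPKM, highest in wildtype (-0.39 ± 0.19; limma, adjusted p = 0.452).

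Other genes of the pathway were read from lists of what acts before and after ATF4. The 14 kinases, phosphatases and regulators of eIF2 alpha gave 0 calls by limma or voom in every comparison, and 0 had an unadjusted p under 0.05 in knockout against wildtype. Impact, an inhibitor of the kinase GCN2, differed by -0.15 ± 0.06 from all controls (limma, adjusted p = 0.389), and Ppp1r15a, the stress-induced phosphatase subunit GADD34, by 0.19 ± 0.09 (limma, adjusted p = 0.463). Of 14 further ATF4 targets 10 were tested and 0 were called by either tool. At an unadjusted p under 0.05, 1 was higher and 1 lower in knockout than in wildtype, beside 4.26% and 3.24% of all genes. Against all controls 3 were higher and 0 lower, beside 6.76% and 5.46% of all genes. Against heterozygous libraries 2 were higher and 0 lower, beside 7.11% and 4.91%.

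Of these further targets, Cebpb encodes a C/EBP protein, the family that ATF4 pairs with. It stood at 2.41 and 1.85 FPKM in wildtype, 2.40 and 2.04 in heterozygous and 3.87, 3.53 and 3.26 in knockout libraries. All knockout libraries were above all controls, with a log2 difference of 0.52 ± 0.10 (SE; limma, adjusted p = 0.0840). Atf3 stood at 4.06 and 3.76, at 2.20 and 2.10, and at 3.76, 5.36 and 5.81 FPKM, lowest in both heterozygous libraries (0.59 ± 0.22 against all controls; limma, adjusted p = 0.353). The reactive glia and microglia markers were also higher in the knockout libraries, and their part in these levels was not tested. The 9 further genes of proline synthesis and methionine salvage gave 0 calls by either tool and 0 with an unadjusted p under 0.05 in knockout against wildtype. Enoph1, of the methionine salvage pathway, differed from all controls by 0.09 ± 0.06 (limma, adjusted p = 0.606).

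The heterozygous libraries were compared with wildtype to read the effect of one lost allele. By limma 0 members and 0.00% of all genes were called, and voom called 0 as well. At an unadjusted p under 0.05 there were 8 of 20 synthetases and 6 of 17 other members, all lower in heterozygous libraries, beside 2.46% of all genes lower and 1.54% higher. In 11 of 20 synthetases and 9 of 17 others both heterozygous libraries lay below both wildtype libraries (15.7% of all genes), and in 2 and 3 both lay above (14.3%). The medians were -0.15 for the synthetases and -0.19 for the others, against -0.01 over all genes.

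The knockout and heterozygous differences share the wildtype libraries, so the values stand side by side without a test of their likeness. For Cars they were -0.65 and -0.48, for Mars -0.65 and -0.54, for Yars -0.42 and -0.38, for Aars -0.34 and -0.34, and for Mthfd2 -0.93 and -0.88 (log2). For Asns they were -0.47 and -0.10. Apip, a methionine salvage enzyme named after its values were seen, stood at 11.8 and 11.7 FPKM in wildtype, 8.57 and 8.96 in heterozygous and 10.4, 11.1 and 10.5 in knockout libraries, and had -0.13 and -0.38. Knockout lay between the other genotypes there without overlap.

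Knockout against heterozygous libraries tested the direct difference between these genotypes. It called 0 members by limma and 0 by voom, beside 0.317% of all genes in the limma fit. No synthetase had an unadjusted p under 0.05, and of the other members 2 were lower (Asns and Psph) and 2 higher (Shmt2 and Apip), beside 4.91% lower and 7.11% higher of all genes. Knockout lay below heterozygous in every library for 5 of 20 synthetases and above for 2, beside 14.5% and 15.3% of all genes. Asns had the smallest p on the lower side (-0.37 ± 0.09; limma, adjusted p = 0.271), and Apip on the higher side (0.25 ± 0.06; limma, adjusted p = 0.265).

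Against all 4 controls together, 0 of 20 synthetases and 0 of 17 other members were called by limma, beside 0.614% of all genes, and voom called 1 member, Asns, beside 1.00%. At an unadjusted p under 0.05 there were 4 synthetases (Cars, Farsb, Iars and Nars) and 1 other member (Asns), all lower in knockout, beside 5.46% of all genes lower and 6.76% higher. These are the 5 tested members whose 3 knockout libraries lay below all 4 controls, as in 6.26% of all tested genes, and the untested Pycr1 had the same order. In no member did all knockout libraries lie above all controls, as in 6.75% of all genes. Cars differed by -0.41 ± 0.14 and Iars by -0.36 ± 0.11 in this comparison (log2, SE; limma, adjusted p = 0.336 and 0.291). The controls were not of one level for Cars, with heterozygous at 10.5 ± 0.10 FPKM (SD, n = 2) and wildtype at 15.1 ± 0.469 (SD, n = 2).

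Members that hold the letters of the ATF4 element in the promoter window described above did not all lie on one side. Of the 9 tested, 8 had a knockout difference from wildtype below 0, with a median of -0.34, and Slc7a11 stood at 0.29 ± 0.22. The 20 tested members whose window lacks these letters had 14 below 0 and a median of -0.05. Of all tested genes 51.0% were below 0. Mthfd2, with the lowest difference of all, was among those without the letters in its window. Of the 9 with the letters, 5 were highest in both wildtype libraries (Iars, Yars, Aars, Tars and Asns). So were 6 of the 20 without the letters, beside 4.13% of all tested genes. For Asns this rested on a narrow gap, 15.42 FPKM in wildtype 1 against 15.38 in heterozygous 1. Trib3 and Chac1 overlapped between wildtype and knockout.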

How the data were processed

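The 38 members and the companion lists were chosen with earlier results of these data known. The authors deposited 1 table of FPKM for 54532 genes in 7 libraries. The submitters' processing notes name TopHat2 2.0.9, Bowtie2 at 2.0.6, HTSeq, DESeq, and mm10 and GRCm38 as builds; the sequence of steps, settings and annotation are not given in the sources used here. The deposited FPKM were already on a median-of-ratios scale, since that rescaling multiplied every library by the same factor. Members were matched by gene symbol, and positions and exon lengths came from GENCODE mouse M21, which held 54495 of the gene identifiers. With those lengths 96.8% of values above 0 were whole reads within 0.01, and reads were recovered in every library for 53573 genes, 35 of the members among them. Replicates were compared and none were duplicates (mean chi-square per gene from 6.16 to 18.4). Exons of 10 members overlap another gene, and the kit did not mark strand per the labels' protocols.

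Log2(FPKM + 1) was analysed for the 15472 genes that averaged 1 FPKM or more, with limma 3.58.1 in R 4.3.3 (empirical Bayes with a mean-variance trend). A fit of 3 genotypes had 4 residual degrees of freedom and a fit of knockout against all controls had 5. P-values were adjusted over all tested genes by the Benjamini-Hochberg method at a threshold of 0.05. Fold changes on this scale understate those of low genes. The scripts were tested on simulated data. Values in every library are given for members called in any comparison, for the 6 synthetases and 8 other members with the smallest p against all controls, and for Cars, Atf4, Ddit3, Asns, Phgdh, Psat1, Chac1 and Trib3. From each companion list up to 2 genes with the smallest p against all controls are named, of which 1 is not reported here. Yars, Aars, Apip, Pycr1, Farsa, Slc7a11 and the genes of counts up to 5 were named after their values were seen. The alternatives were a pseudocount of 0.1, no filter or a minimum mean of 5 FPKM, the TPM scale, median-of-ratios rescaling, voom on recovered reads, no trend, the lens or Ddx3y level as a covariate, a replicate block, leaving out both lens-rich libraries and leaving out each library.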

Additional observations from a re-analysis of the deposited data

Results flagged for a closer look

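Phgdh stood far from the rest in 1 control library. Heterozygous 1 had 15.6 FPKM and the other 3 control libraries had 1.87 to 3.33 FPKM, so that its gap to the nearest was 0.894 of the range of the 4 controls, above Dixon's 95% critical value for 4 samples. The same 4 controls were checked for all 38 members, and chance gives such a gap in about 1 in 20 groups. Heterozygous 1 was also 1 of the 2 libraries with lens RNA (lens markers summing to 4156 FPKM). The other, knockout 1, had Phgdh at 12 FPKM.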

How the results depend on the processing

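Cars, the 1 member called, kept its sign under all 18 alternatives run, while small differences that were not called changed sign in some. In knockout against wildtype the count of synthetases called went from 1 (Cars) to 0 on the TPM scale, with both lens-rich libraries left out and when lens level was a covariate, to 4 of 17 with voom on recovered reads, and was between 0 and 1 when 1 library was left out. It was 0 with a replicate block as well (Cars -0.69, adjusted p = 0.163). The labels did not say whether the numbers pair the samples. Same-numbered deviations correlated at -0.018 between wildtype and heterozygous libraries and at 0.092 and -0.023 between wildtype and knockout. Between heterozygous and knockout they correlated at 0.430 and 0.271. In a genotype with 2 libraries the deviations mirror each other, so these values cannot decide whether the samples are paired. The other members called went from 0 to 2 with voom (Mthfd2 and Aldh18a1) and were between 0 and 1 when 1 library was left out. Against all controls they went from 0 to 1 with voom and to 1 with the Ddx3y level as a covariate (Asns in both). The remaining counts did not move. The causes were not tested. Some medians changed side. In knockout against heterozygous libraries that of the synthetases was 0.01 without heterozygous 1, and that of the other members (0.06) was -0.02 on the TPM scale, -0.01 with the Ddx3y covariate, -0.06 without knockout 1 and -0.19 without heterozygous 2. Against all controls that of the other members (-0.03) was above 0, from 0.01 to 0.05, with the replicate block and without wildtype 1, wildtype 2, heterozygous 1 or knockout 3. Read number limits Chac1 most, with 20 to 39 reads a library.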

Other observations

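Among the mitochondrial synthetases Lars2, the leucyl enzyme gene, was chosen after its values were seen because it had the widest range. It stood at 26.8 and 13.2 FPKM in wildtype, 31.5 and 55.5 in heterozygous and 96.9, 31.1 and 75.6 in knockout libraries, with knockout above wildtype in every library and overlapping heterozygous (1.65 ± 0.53 against wildtype on the log2 scale, limma, adjusted p = 0.543). The predicted gene Gm23935 stood at 13715 and 5184, at 15156 and 29701, and at 51208, 18091 and 39815 FPKM in the same libraries. Its part in the Lars2 values was not tested.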
